A study of Mus musculus with 15 samples.

Results

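The genes described here encode the proteasome, its activators, its inhibitor and its assembly chaperones, in CD8+ T cells sorted from mouse tumours. They were chosen by symbol, as every listed name that starts with Psm, a letter from a to g and a digit, without pseudogenes. The rule found 50 symbols among 21788 in the files, and 49 of them were listed in all 15 libraries, in which 10625 genes were listed. No pseudogene and no symbol listed more than once had to be left out. The immunoproteasome set held 5 genes, called induced below, and 44 genes formed the constitutive set. The remaining symbol, Psmc3ip, encodes a partner of meiotic recombinases and no proteasome subunit, so it is reported apart. Psma8 was listed only in the 3 wild-type sorted libraries numbered 1, at 0, 0 and 0.23 FPKM.

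The proteasome is the protease that degrades proteins tagged with ubiquitin. Its barrel, the 20S core, is built from rings of alpha (Psma) and beta (Psmb) subunits, and the cutting sites lie inside, on Psmb5, Psmb6 and Psmb7. The 19S particle caps the barrel, with ATPases (Psmc) that unfold the substrate and other subunits (Psmd) that bind and strip ubiquitin. Interferon gamma induces Psmb8, Psmb9 and Psmb10, which take the places of Psmb5, Psmb6 and Psmb7 in newly built cores, and it also induces Psme1 and Psme2, which form the PA28 activator. The resulting immunoproteasome is known for cutting the peptides that MHC class I molecules display, and lymphocytes carry much of it at rest.

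All mice were female, of the strain C57BL/6 where the label is intact, aged 6 to 8 weeks when E.G7 tumour cells were placed under the skin and 9 to 11 weeks at collection on day 21. E.G7, a lymphoma line of T cell origin that makes ovalbumin, was carried by every mouse, so no group was free of tumour. One pair of bulk libraries held ovalbumin-specific CD8+ T cells of wild-type mice and of mice labelled B7S1 KO, with 6 mice per group. B7S1, encoded by Vtcn1, is a ligand that restrains T cells. In 9 sorted libraries, PD-1+ CD8+ T cells were parted into TIM-3_SP (Tim-3+B7S1R-), B7S1R_SP (Tim-3-B7S1R+) and DN (Tim-3-B7S1R-), and each population has a pair of wild-type libraries, numbered 1 and 2, and a single one labelled KO. The remaining 4 libraries were titled Control, anti_B7S1, anti_PD1 and combo and came from wild-type mice. Neither their dose and schedule nor their sorting gate is stated. Values are RPKM in the bulk pair and FPKM elsewhere, both per length of transcript, and total reads are not given in the sources used here. Nothing says that libraries of a group came from separate mice, so p-values measure the spread between libraries, which may be technical. In sorted or bulk RNA, fewer cells of a type and less RNA per cell cannot be told apart.

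The induced subunits and the subunits they replace lie at separate places in the mouse genome. On GRCm38.p6, Psmb8 lies at chr17:34198195-34201454 and Psmb9 at chr17:34182030-34187330, inside the MHC and on either side of the peptide transporter gene Tap1. Psmb5 lies at chr14:54614120-54617995 and Psmb6 at chr11:70525324-70527858. Up to 250 bases before the RefSeq start of these 2 pairs of genes are shown, 5′ to 3′ on the strand of the gene, because the pairs carry the exchange described below. Bases inside a gene were left out, which were 25 of the Psmb9 window (inside Tap1) and 33 of the Psmb6 window (from an earlier start of Psmb6). Capitals mark matches to 4 motifs searched on both strands. They were the core of the interferon-stimulated response element (GAAA, any 2 bases, GAAA), the interferon gamma-activated site (TTCNNNGAA), the core of the antioxidant response element (TGACNNNGC) and the CCAAT box (CCAAT).
Psmb8: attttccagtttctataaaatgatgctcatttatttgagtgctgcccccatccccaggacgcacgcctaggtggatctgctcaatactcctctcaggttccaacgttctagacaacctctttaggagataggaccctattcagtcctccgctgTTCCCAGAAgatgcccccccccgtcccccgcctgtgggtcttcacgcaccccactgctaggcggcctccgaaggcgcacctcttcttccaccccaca
Psmb5: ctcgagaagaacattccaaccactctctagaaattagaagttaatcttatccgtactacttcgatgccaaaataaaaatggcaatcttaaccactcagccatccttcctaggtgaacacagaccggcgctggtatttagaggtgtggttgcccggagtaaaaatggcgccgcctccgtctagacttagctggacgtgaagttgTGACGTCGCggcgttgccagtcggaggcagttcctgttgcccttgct
Psmb9: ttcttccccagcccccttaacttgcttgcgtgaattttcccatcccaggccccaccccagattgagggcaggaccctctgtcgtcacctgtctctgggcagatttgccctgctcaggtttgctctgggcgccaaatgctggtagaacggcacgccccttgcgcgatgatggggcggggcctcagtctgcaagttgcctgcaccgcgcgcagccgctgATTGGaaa
Psmb6: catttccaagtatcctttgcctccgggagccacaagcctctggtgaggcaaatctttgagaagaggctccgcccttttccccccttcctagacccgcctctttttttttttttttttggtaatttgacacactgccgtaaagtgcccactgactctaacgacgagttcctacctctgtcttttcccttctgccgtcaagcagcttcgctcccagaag
The windows run at chr17:34197945-34198194 (plus strand) for Psmb8, chr14:54617996-54618245 (minus) for Psmb5, chr17:34187331-34187555 (minus) for Psmb9 and chr11:70525107-70525323 (plus) for Psmb6. Psmb8 held TTCCCAGAA from base -97 to -89, a form of the activated site, which 7.02% of 32851 RefSeq promoters held in the same length. Psmb5 held TGACGTCGC, from base -47 to -39, a match to the antioxidant core that 10.2% of promoters held. Psmb6 held such a match too, in the last bases before its RefSeq start, which are among those not shown. Psmb9 held a reversed CCAAT box, found in 33.8% of promoters. RefSeq windows were matched for 42 of the 50 genes. Among the 5 induced genes 0 held the core of the interferon-stimulated element, against 3 of 36 constitutive genes and 2.98% of promoters. The antioxidant core was in 0 of 5 induced and 5 of 36 constitutive windows, the activated site in 1 of 5 and 1 of 36, and the CCAAT box in 1 of 5 and 13 of 36. These are matches of letters only.

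Some libraries stood apart from the rest, and results that rest on them are given with that in view. Vtcn1, the gene named as deleted, was listed at 0 in all 3 wild-type sorted libraries numbered 2 and at 0.16 to 2.5 FPKM in the sorted libraries labelled KO. Bulk wild type had 0.069 RPKM of it, and the bulk library labelled KO 9.46. The transcript was therefore not lower where the label names the gene as deleted, and "labelled KO" is used throughout. The values in the sorted libraries are low, and transcript values do not settle the genotype. The 4 haemoglobin genes summed to between 11149 and 95193 FPKM in the wild-type libraries numbered 2, which was 1.13% to 9.71% of all values there, and to between 4.72 and 142 FPKM in those labelled KO. The CD8 T cell markers (8 genes, all listed at 1 or more in every library) were present in every library. Their summed level in the B7S1R_SP libraries numbered 1, numbered 2 and labelled KO was 4712, 2286 and 2013 FPKM, against 3317 to 8696 FPKM in the TIM-3_SP and DN libraries. Of the 12 to 15 myeloid markers listed, 9, 13 and 15 were at 1 FPKM or more in the same B7S1R_SP libraries, and their summed level was 2279, 472 and 6476 FPKM. In TIM-3_SP and DN, 5 to 9 of them were at 1 FPKM or more, with sums of 97.7 to 557 FPKM. Control had 42.4% of its symbols at 0, the highest share of the 15 libraries. The files form 4 tables with different gene lists, so values are compared within a table unless stated.

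Nearly all proteasome genes were expressed in every sorted library, at levels far above the typical gene. Over the 9 sorted libraries the mean log2(FPKM + 1) had a median of 8.41 for the 7 alpha genes, 8.45 for the 7 constitutive beta genes and 8.80 for the 5 induced genes. It was 6.74 for the 6 ATPases and 6.27 for the 11 other 19S subunits, against 2.83 over 10178 genes. The 3 genes with the highest mean were Psmb8 (9.54), Psme2 (9.49) and Psmb3 (9.37), a structural beta subunit. At the low end stood Psme4, the large activator PA200 (2.12), and Psmb11, the thymus-specific beta subunit (2.42).

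The genes of the core differed in how much they varied between the 9 sorted libraries. The steadiest were the alpha subunit gene Psma7, from 371 to 514 FPKM with an SD of 0.16 on the log2 scale, and the beta subunit gene Psmb4, from 294 to 433 FPKM with an SD of 0.19. At the other end Psmb7 ran from 136 to 663 FPKM (SD 0.85), and Psma5 and Psmb2 had SDs of 0.66 and 0.63. All SDs here span the set numbered 1 and libraries of another table, so they include any difference between tables. Psmb7 stood at 136 to 251 FPKM in the set numbered 1 and at 315 to 663 in the other sorted libraries. For Psma5 these ranges were 92.0 to 182 and 183 to 369 FPKM, and for Psmb2 233 to 417 and 405 to 780. The median SD was 0.41 for the alpha genes, 0.51 for the constitutive beta genes, 0.46 for the induced genes and 0.90 for all genes. Among the 1267 genes with a mean log2 of at least 6 the median SD was 0.60. The 4 chaperones of 20S assembly (Psmg1 to Psmg4) had a median SD of 1.31. Psmb11 (1.67) and Psme2b (1.94), a close copy of Psme2, also varied widely.

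**Figure D1:**
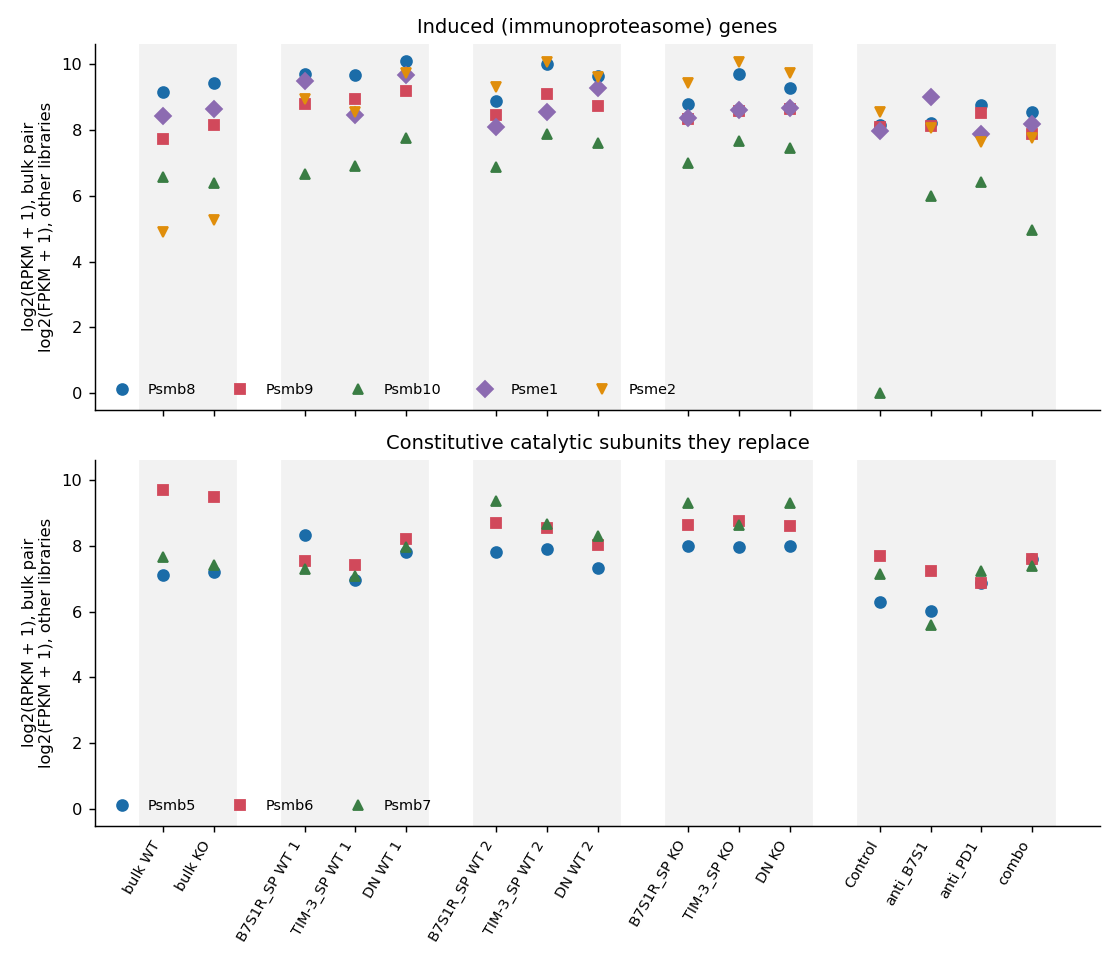
Values of the 5 induced genes (top) and of the 3 constitutive catalytic subunits they replace (bottom) in each of the 15 libraries, on the log2(value + 1) scale. Grey blocks hold libraries of 1 table or set, and each point is 1 library. Psmb8 lies above its partner Psmb5 in every library, and Psmb10 is listed at 0 in Control.

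The induced genes were lower in B7S1R_SP than in DN in each set of libraries, but none of the 5 passed the test. Psmb8 (chymotrypsin-like site) stood at 834, 475 and 445 FPKM in the B7S1R_SP libraries numbered 1, numbered 2 and labelled KO, in that order. In DN it stood at 1104, 805 and 617 FPKM, and in TIM-3_SP at 809, 1039 and 829. B7S1R_SP was thus the lowest population for Psmb8 in the sets numbered 2 and labelled KO, while in the set numbered 1 TIM-3_SP was slightly lower still.

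Psmb10 (the induced counterpart of the trypsin-like subunit) showed B7S1R_SP lowest in all 3 sets. It stood at 100.4, 117 and 128 FPKM in B7S1R_SP, at 120.0, 235 and 204 in TIM-3_SP, and at 216, 192 and 175 in DN. Psmb9 (the induced counterpart of the caspase-like subunit) stood at 443, 347 and 323 FPKM in B7S1R_SP, at 489.7, 545 and 380.0 in TIM-3_SP, and at 578, 421 and 397 in DN. For Psmb9 too, B7S1R_SP was lowest in every set, although its library numbered 1 lay above the DN library numbered 2.

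The PA28 genes behaved less alike. Psme1 stood at 725, 272 and 331 FPKM in B7S1R_SP, at 350.3, 369.9 and 387 in TIM-3_SP, and at 808, 626 and 405 in DN. DN was the highest population in every set, and its wild-type libraries did not overlap those of TIM-3_SP. Psme2 stood at 492, 629 and 684 FPKM in B7S1R_SP, at 373, 1066 and 1061 in TIM-3_SP, and at 846, 777 and 849 in DN, so TIM-3_SP was lowest in the first set and highest in the other two. Reads of Psme2 may be shared with Psme2b, which makes both values uncertain.

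Over the 6 wild-type libraries, limma called 0 of 10411 genes between B7S1R_SP and DN (0% called). At an unadjusted p under 0.05 stood 280, among them 0 proteasome genes. That fit, like the other population fits, held no term for the library number. Its SEs therefore include any difference between the sets numbered 1 and 2. With the replicate block the smallest adjusted p of a proteasome gene was 0.929 (limma). The log2 differences of B7S1R_SP minus DN were -0.90 ± 0.77 (SE) for Psmb10, -0.68 ± 0.81 for Psme1, -0.58 ± 0.77 for Psmb8, -0.54 ± 0.82 for Psme2 and -0.33 ± 0.74 for Psmb9, with n = 2 libraries a group and adjusted p = 1 by limma for each. Their median was -0.58, against 0.06 for the 43 constitutive genes and -0.03 for all genes tested. Within sets the induced median was -0.40, -0.71 and -0.31 in the sets numbered 1, numbered 2 and labelled KO. The constitutive median was -0.08, 0.19 and -0.06 in the same order, and that of the 14 constitutive ring genes -0.31, 0.49 and -0.02. In the set numbered 1 the 7 constitutive beta genes had a median of -0.67, so the fall there was not particular to the induced genes. Without B7S1R_SP numbered 2 the induced median was -0.18.

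Between B7S1R_SP and TIM-3_SP limma also called 0 of 10411 genes (0%, 493 at an unadjusted p under 0.05, 2 of them proteasome genes), and 7 with the replicate number as a block, none of them a proteasome gene. The induced median of B7S1R_SP minus TIM-3_SP was -0.40 on the log2 scale, the constitutive median 0.12 and that of all genes 0.16. The 4 induced genes with negative values were Psmb10 (-0.63), Psmb8 (-0.54), Psmb9 (-0.40) and Psme2 (-0.18), and Psme1 stood at 0.30. Within sets the induced median was 0.04, -0.76 and -0.63, so the difference was absent from the set numbered 1.

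Between TIM-3_SP and DN 0 of 10411 genes were called (0%, 358 at an unadjusted p under 0.05, 1 of them a proteasome gene), and 2 with the replicate block. The induced median was -0.28, the constitutive -0.14 and that of all genes -0.17, so neither stood far from the rest. Psme1 had the largest induced difference, at -0.98 ± 0.81 (SE, adjusted p = 1 by limma).

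Counted by rank within sets, some proteasome genes had the same population lowest or highest in every set. The count for TIM-3_SP as the lowest is given further below. B7S1R_SP was lowest in every set for 3 of 49 genes, against 5.36% of 10178 genes: Psmb9, Psmb10 and Psmb1, a structural beta subunit. It was highest for 2 genes (7.82% of all genes), Psma6 and Psmg1. After each library was shifted to the same median B7S1R_SP was lowest for 4 genes (7.46%), namely Psmb10, Psmb8, Psmd1 and Psmd13, and highest for 0 (5.28%). TIM-3_SP was highest for 0 (4.61%) and DN lowest for 0 (1.85%). DN was highest for 6 genes (4.09%): the 19S genes Psmd4 and Psmd11, the 19S assembly chaperones Psmd5 and Psmd9, Psme1 and Psmg3. With the shift that last count was 1 of 49, against 3.07% of all genes.

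**Figure D2:**
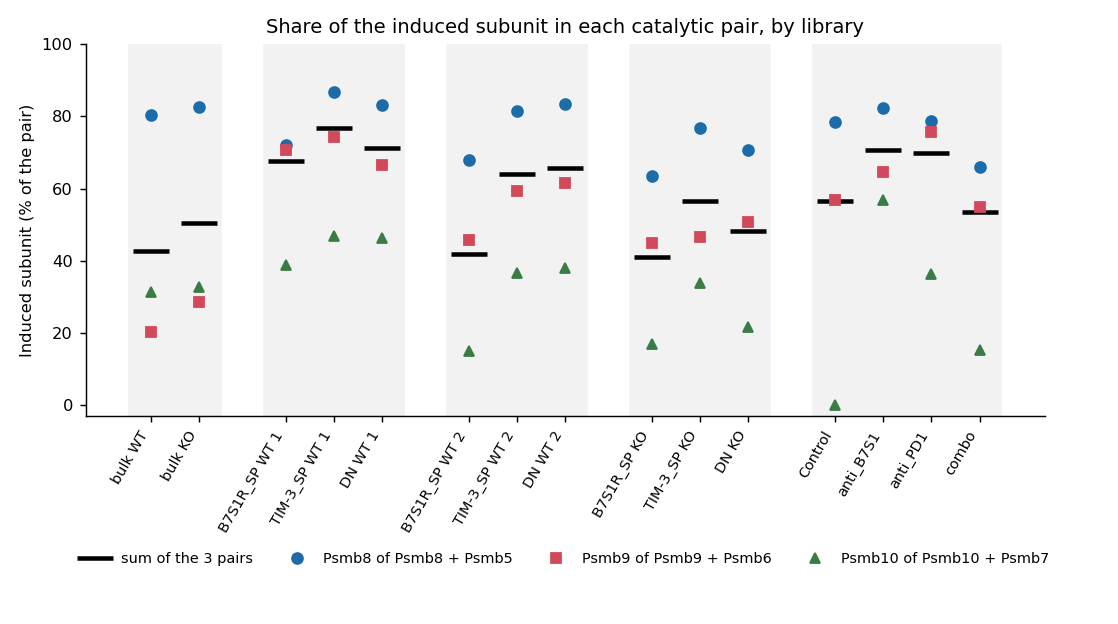
Share of the induced subunit in each catalytic pair (points) and in the 3 pairs summed (black bars), in percent of the summed RPKM or FPKM of the pair, for each library. In each set of sorted libraries B7S1R_SP has the lowest black bar, at 67.5%, 42.0% and 41.1%.

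A pair of subunits from 1 library can be compared without the scale of the library, because both values are per length and carry the same factor. The induced subunits made up 67.5%, 42.0% and 41.1% of the 3 summed pairs in B7S1R_SP numbered 1, numbered 2 and labelled KO. The share was 76.7%, 64.1% and 56.5% in TIM-3_SP, and 71.2%, 65.7% and 48.2% in DN. For this sum B7S1R_SP was lowest in every set, yet its library numbered 1 lay above several TIM-3_SP and DN libraries of other sets.

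Each pair had its own level. Psmb8 made up 63.5% to 86.6% of Psmb8 and Psmb5 in the 9 sorted libraries, so the induced chymotrypsin-like subunit exceeded its partner everywhere. Psmb9 made up 44.9% to 74.1% of its pair with Psmb6. In the set numbered 1 the Psmb9 share was 70.7% in B7S1R_SP and 66.4% in DN, so this pair did not keep the order of the sum there. Psmb10 made up 15.03% to 46.9% of its pair with Psmb7, so here the constitutive subunit was higher in every sorted library. The lowest Psmb10 shares were those of B7S1R_SP numbered 2 (15.03%) and labelled KO (16.9%), where Psmb7 stood at 663 and 629 FPKM, beside 117 and 128 FPKM of Psmb10.

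The libraries labelled KO had a lower induced share than the wild-type library numbered 2, in each of the 3 populations. Their shares were also below those of the wild-type libraries numbered 1. These come from another table, where every share was higher (67.5% to 76.7%). The gap to the wild-type library numbered 2 was small in B7S1R_SP (42.0% against 41.1%), and wider in TIM-3_SP (64.1% against 56.5%) and DN (65.7% against 48.2%). The partner subunits carried part of this in DN, where Psmb5, Psmb6 and Psmb7 stood at 161, 263 and 315 FPKM in the wild-type library numbered 2 and at 255, 386 and 635 in the one labelled KO. In every set the summed myeloid markers given above were highest in B7S1R_SP and the summed CD8 markers lowest. Their part in these shares was not tested.

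**Figure D3:**
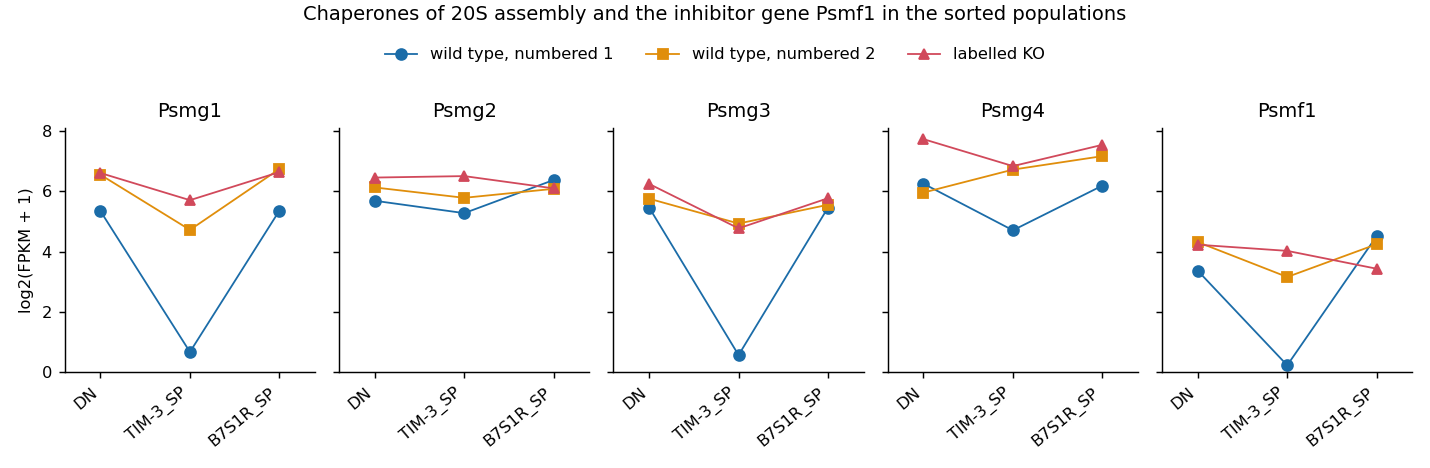
Values of the 4 chaperones of 20S assembly and of the inhibitor gene Psmf1, on the log2(FPKM + 1) scale, in the 3 sorted populations. Lines join libraries of 1 set. TIM-3_SP is the lowest point of all 3 lines for Psmg1 and Psmg3, and the dip is deepest in the set numbered 1.

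The widest differences between populations were in the chaperones that assemble the barrel. Psmg1, which with Psmg2 builds the alpha ring, stood at 0.59, 25.4 and 51.3 FPKM in TIM-3_SP numbered 1, numbered 2 and labelled KO. It stood at 39.6, 92.9 and 96.7 FPKM in DN and at 40.1, 106 and 98.8 in B7S1R_SP. TIM-3_SP was lowest in every set, and in the set numbered 1 the gene was close to undetected there while the other populations were alike.

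Psmg3, which pairs with Psmg4 in the same task, was also lowest in TIM-3_SP in every set. It stood at 0.48, 29.6 and 26.4 FPKM in TIM-3_SP, at 43.2, 53.1 and 75.1 in DN, and at 43.2, 46.1 and 53.7 in B7S1R_SP. Psmf1, the inhibitor PI31, stood at 0.17, 7.93 and 15.3 FPKM in TIM-3_SP, at 9.31, 18.9 and 17.8 in DN, and at 21.9, 18.0 and 9.80 in B7S1R_SP. For Psmf1 TIM-3_SP was lowest among wild-type libraries only, since B7S1R_SP was lowest among those labelled KO.

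The partners of these chaperones shared the direction in part. All 4 chaperones had negative fitted differences of TIM-3_SP minus DN and positive ones of B7S1R_SP minus TIM-3_SP. Of all 10411 genes tested, 6109 were negative in the first comparison and 5923 positive in the second. Psmg2 stood at 37.8, 54.2 and 90.1 FPKM in TIM-3_SP, at 50.6, 69.1 and 87.0 in DN, and at 82.3, 66.9 and 67.6 in B7S1R_SP. TIM-3_SP was its lowest population in both wild-type sets and its highest among the libraries labelled KO. Psmg4 stood at 25.2, 105 and 114 FPKM in TIM-3_SP, at 75.5, 61.3 and 212 in DN, and at 72.1, 143 and 186 in B7S1R_SP, where TIM-3_SP was lowest in 2 of the 3 sets. Pomp, the maturation chaperone of the barrel, stood at 248 to 564 FPKM in TIM-3_SP and 411 to 708 in DN.

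None of these differences passed the test. TIM-3_SP minus DN was -3.25 ± 1.33 (SE) for Psmg1, -2.86 ± 1.31 for Psmg3 and -2.15 ± 1.06 for Psmf1 on the log2 scale, each with n = 2 libraries a group and adjusted p = 1 by limma. B7S1R_SP minus TIM-3_SP was 3.36 ± 1.33, 2.76 ± 1.31 and 2.69 ± 1.06 for the same genes, with adjusted p = 0.999 by limma. Within the sets, Psmg1 in TIM-3_SP lay 4.68, 1.83 and 0.90 log2 units below DN, so the set numbered 1 gave much of the mean. With the replicate block the smallest adjusted p of any proteasome gene between B7S1R_SP and TIM-3_SP was 0.306, and 0.171 with the block over all 9 libraries.

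TIM-3_SP was the lowest population in every set for 8 of 49 proteasome genes, against 10.5% of all genes. Besides Psmg1 and Psmg3 they were the alpha gene Psma6, the ATPase genes Psmc3 and Psmc5, the 19S genes Psmd3 and Psmd7, and the 19S assembly chaperone Psmd5. After each library was shifted to the same median they were 5 of 49, against 6.12% of all genes. Psmd5 stood at 20.6, 20.9 and 28.1 FPKM in TIM-3_SP and at 56.7, 64.1 and 47.3 in DN, without overlap. It also had the most negative difference of B7S1R_SP minus DN among the genes outside the induced set, at -0.88 ± 0.74 (SE), from 26.2, 39.4 and 37.8 FPKM in B7S1R_SP.

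Other genes that ranked at the ends of these comparisons rested on 1 or 2 libraries. Psme2b stood at 68.5, 111 and 4.63 FPKM in B7S1R_SP, TIM-3_SP and DN numbered 1 and between 1.90 and 5.02 FPKM in the other sorted libraries. Psmb11 stood at 28.4, 43.9 and 6.50 FPKM in the same first set and at 0.93 to 2.41 FPKM in the rest, so both were high in the same pair of libraries. Psmc3ip stood at 1.14 FPKM in DN numbered 1 and at 6.09 to 37.0 FPKM in the other 8. Psmd10, a 19S assembly chaperone also called gankyrin, stood at 22.9 FPKM in B7S1R_SP numbered 1 and at 34.1 to 73.0 FPKM elsewhere.

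Outside the induced set, the ring genes Psma2 and Psmb1 had the most negative differences of B7S1R_SP minus TIM-3_SP after Psmd10. Psmb1 stood at 363, 562 and 689 FPKM in B7S1R_SP, at 499.7, 784 and 1050 in TIM-3_SP, and at 616, 679 and 771 in DN. B7S1R_SP was lowest in every set, but the libraries of different sets overlapped. Psma2 stood at 359.9, 535 and 675 FPKM in B7S1R_SP, at 569, 688 and 868 in TIM-3_SP, and at 629, 484 and 741 in DN. The differences were -0.47 ± 0.76 (SE) for Psmb1 and -0.51 ± 0.75 for Psma2, with adjusted p = 0.999 by limma for both.

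**Figure D4:**
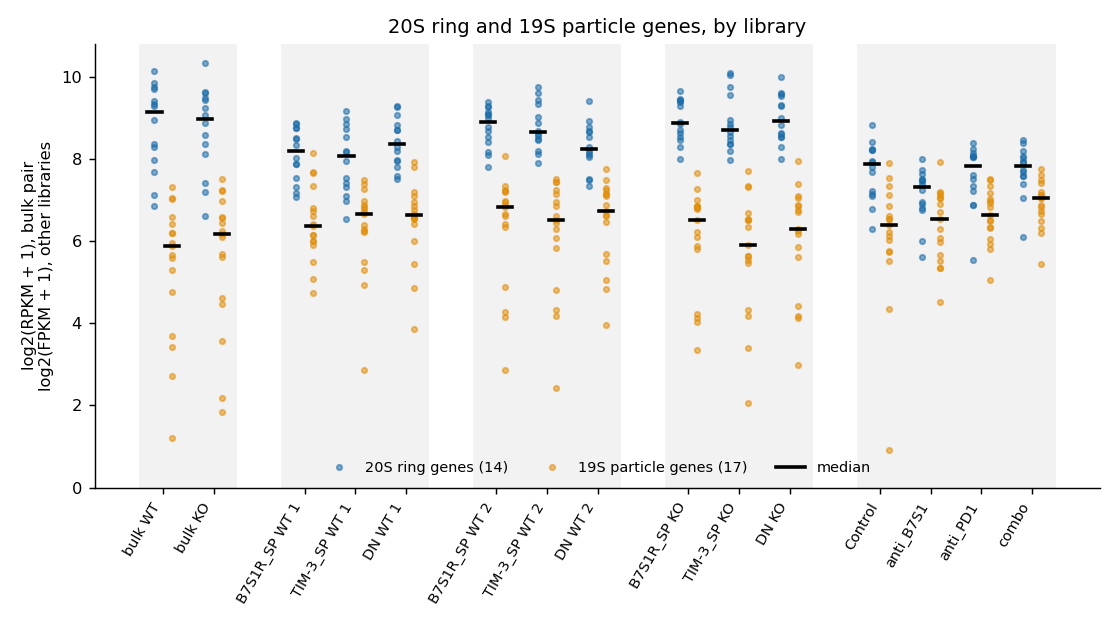
Values of the 14 constitutive 20S ring genes (blue) and the 17 subunit genes of the 19S particle (orange) in each library, on the log2(value + 1) scale, with black bars at the medians. The blue median lies above the orange in every library, and in each population the distance is widest where the library is labelled KO.

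Genes of the barrel and of its cap were compared within each library, where the scale of the library again cancels. The median 20S gene stood 2.87-fold above the median 19S gene in DN numbered 2, 4.38-fold in TIM-3_SP numbered 2 and 4.14-fold in B7S1R_SP numbered 2. In the libraries labelled KO the ratio was 6.12, 6.99 and 5.15 for the same populations. It was higher than in the wild-type library numbered 2 in each population. It was also higher than in the library numbered 1, which comes from another table (3.31, 2.64 and 3.53). On the log2 scale the mean difference of the 3 populations was 0.69 ± 0.39 (SD between the populations), and 0.95 with the libraries numbered 1 in place of those numbered 2.

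**Figure D5:**
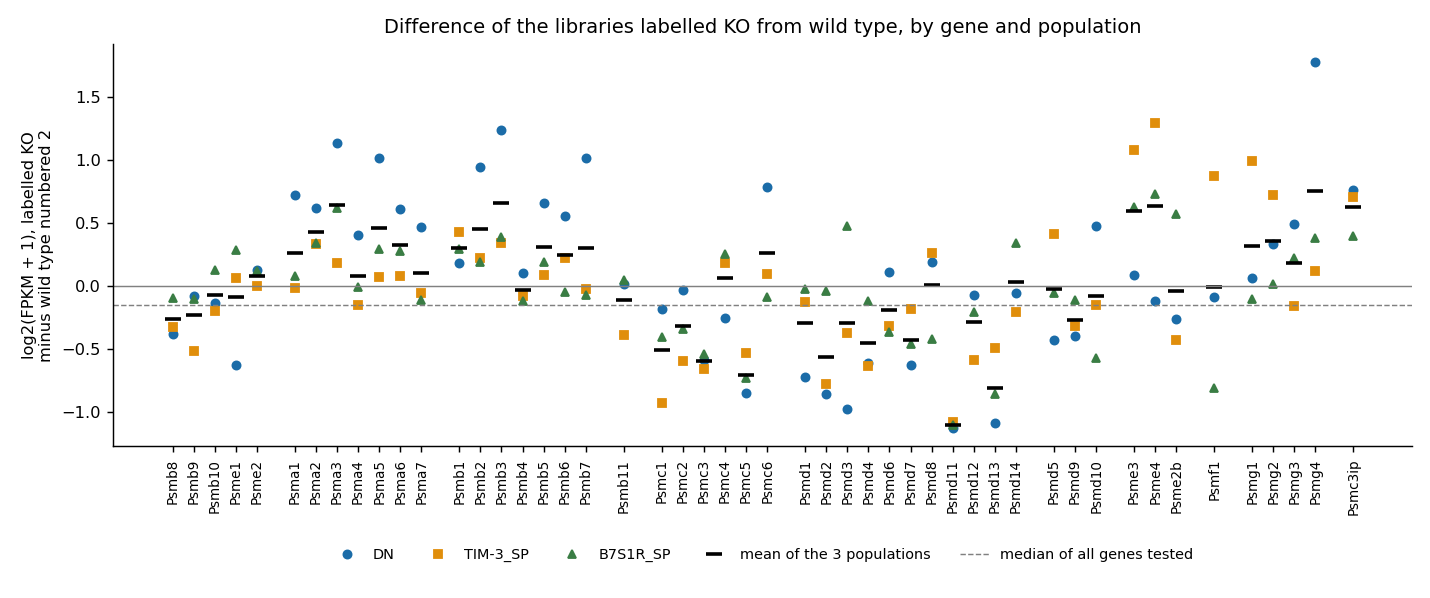
Difference on the log2(FPKM + 1) scale between the library labelled KO and the wild-type library numbered 2, for 49 genes in order of their group, with 1 point a population and black bars at the means. The bars of Psma1 to Psma7 all lie above 0, and those of 13 of the 17 Psmc and Psmd genes of the 19S particle lie below it. Of all 10097 genes tested, 6009 had negative differences.

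Between the 3 libraries labelled KO and the 3 of wild type numbered 2, limma with the population as a covariate called 4 of 10097 genes (0.0396%, 1255 at an unadjusted p under 0.05), all lower in the libraries labelled KO. They were the haemoglobin genes Hba-a1, Hba-a2 and Hbb-bs, and Xkrx, and none is a proteasome gene. With all 9 sorted libraries 0 were called. The median of all genes was -0.16, which is the shift against which the values below are read.

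Psmd11, a 19S scaffold subunit, had the largest difference of any proteasome gene. It stood at 71.0, 45.4 and 57.7 FPKM in DN, TIM-3_SP and B7S1R_SP labelled KO, and at 157, 97.1 and 125 in wild type numbered 2. All libraries labelled KO lay below all wild-type ones, also those numbered 1, which come from another table (145, 125 and 84.7). The log2 difference was -1.10 ± 0.35 (SE, 3 libraries a group, each from another population), and lower in 3 of 3 populations. With adjusted p = 0.367 by limma the call was not made. Each population has a single library labelled KO, so SEs of this fit rest on how the differences varied between populations. They do not measure the spread between mice of a genotype.

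The other large differences had the same division of barrel and cap. Psmd13, a 19S lid subunit, stood at 20.4, 18.9 and 15.4 FPKM in the libraries labelled KO and at 44.5, 27.0 and 28.8 in wild type numbered 2. Psmc5, an ATPase, stood at 77.9, 59.0 and 68.1 against 141, 85.95 and 114. For neither did the libraries labelled KO overlap those of wild type numbered 2. For Psmc5 they did overlap those numbered 1, where TIM-3_SP stood at 77.5 FPKM. The log2 differences were -0.81 ± 0.37 for Psmd13 and -0.71 ± 0.36 for Psmc5 (SE, adjusted p = 0.420 and 0.458 by limma).

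On the other side, the alpha subunit gene Psma3 stood at 393, 329.8 and 419 FPKM in DN, TIM-3_SP and B7S1R_SP labelled KO and at 178, 291 and 274 in wild type numbered 2, a log2 difference of 0.64 ± 0.39 (SE, adjusted p = 0.515 by limma) without overlap. Psmb3 stood at 1027, 1095 and 811 against 435, 866 and 620.2 FPKM, a difference of 0.65 ± 0.39 (adjusted p = 0.513 by limma), and these overlapped. Psmg4 had 0.76 ± 0.46 (adjusted p = 0.516 by limma), most of it from DN, at 212 against 61.3 FPKM.

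By group, 13 of 14 constitutive ring genes had positive differences, with a median of 0.31. Negative differences were found for 13 of 17 genes of the 19S particle, with a median of -0.32. Of all 10097 genes tested, 4088 had positive and 6009 negative differences, with a median of -0.16. The ring median was 0.64, 0.08 and 0.19 in DN, TIM-3_SP and B7S1R_SP, and the 19S median -0.59, -0.49 and -0.34. None of these ring and 19S genes passed the test. The signs depend on the scale of the libraries. After each library was shifted to the same median, 3 of 49 genes were lower in the library labelled KO in every population (14.4% of all genes). They were Psmc5, Psmd11 and Psmd13. The ratio of ring to 19S genes within a library, given above, does not depend on that scale.

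Level and transcript length were set beside these values. Among all 491 genes with a mean log2(FPKM + 1) of 8 or more, the median difference was 0.42, and the 13 ring genes of that class had 0.30, so they did not exceed genes of their level. Among the 838 genes from 6 to 8 the median was 0.01, while the 12 genes of the 19S particle there had -0.38. By the longest coding transcript, the median of all genes was 0.10 under 1500 bases, where the 11 ring genes had 0.30 and the 3 genes of the 19S particle -0.19. From 1500 to 3000 bases it was -0.35 for all genes, 0.43 for the 3 ring genes and -0.43 for the 13 genes of the 19S particle. Both classes of length gave the same signs. Only 3 ring genes lay in the longer class and only 3 genes of the 19S particle in the shorter. The 13 genes of the 19S particle in the longer class lay near all genes there. The part of length in these values was not tested. Haemoglobin RNA moved with the same division of libraries, and its part in the values was not tested.

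Counted by direction, 14 of 49 genes were lower in the library labelled KO in every population, against 23.5% of all genes, and 12 were higher, against 14.1%. After the libraries were shifted to the same median these counts were 3 (14.4%) and 18 (23.6%), so the first depends on the scale. The induced genes differed little, and the log2 differences were -0.27 ± 0.36 (SE) for Psmb8, -0.24 ± 0.36 for Psmb9, -0.09 ± 0.39 for Psme1, -0.07 ± 0.36 for Psmb10 and 0.08 ± 0.36 for Psme2. After the shift Psmb8, Psmb9, Psmb10 and Psme1 had positive values. A fit over all 9 sorted libraries called 0 of 10178 genes for a difference between labelled KO and wild type that itself differs between populations (0%, 45 at an unadjusted p under 0.05, 0 of them proteasome genes).

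The other activators were low. Psme3, the nuclear activator PA28 gamma, stood between 3.44 and 19.03 FPKM in the sorted libraries, and Psme4 between 0.73 and 5.66, with TIM-3_SP numbered 2 the lowest for both. The TIM-3_SP library labelled KO stood higher, at 8.35 FPKM for Psme3 and 3.24 for Psme4.

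In the bulk pair, which has 1 library a group and no replicate check, the induced genes differed little. Psmb8 stood at 567 RPKM in wild type and 682 in the library labelled KO, Psmb9 at 211 and 286, and Psmb10 at 93.1 and 82.5. Psme1 stood at 342 and 395 and Psme2 at 28.7 and 37.6. The induced median log2 ratio was 0.27, the constitutive 0.04 and that of all genes -0.02, and the induced share of the 3 pairs was 42.7% in wild type and 50.4% in the library labelled KO. That order is the reverse of the one between the sorted libraries.

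At a 2-fold ratio with 5 or more RPKM in the higher bulk library, 4 of 47 genes were higher in the library labelled KO (10.7% of 6075 genes) and 0 were lower (12.1%). They were Psmg1, at 14.3 and 46.6 RPKM, Psmd7, a 19S subunit, at 26.0 and 67.6, Psmc3ip, at 14.3 and 37.6, and Psme2b, at 0.254 and 6.93. The 20S to 19S ratio was 9.38 in wild type and 7.02 in the library labelled KO, again opposite to the sorted libraries. The 3 genes with the most negative ratio, all within 2-fold, were Psmf1, at 35.0 and 20.4 RPKM, and the 19S genes Psmd1, at 38.2 and 23.5, and Psmd3. The 19S genes with the lowest values were Psmd2, at 1.29 and 2.60 RPKM, and Psmd3, at 5.57 and 3.52 RPKM.

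In the antibody libraries, also 1 a group, each antibody was read in 2 pairs with no library in common. Psmb8 stood at 281 FPKM in Control, 293 in anti_B7S1, 431 in anti_PD1 and 370.5 in combo. Psmb9 stood at 270.0, 275, 365 and 233 in the same order. Psmb10 was listed at 0 in Control and stood at 63.1, 84.9 and 30.4 in the other three. Psme1 stood at 252, 507, 235 and 288, and Psme2 at 373, 268, 197 and 217. No induced gene kept a 2-fold difference in the same direction in both pairs of an antibody.

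The induced share of the 3 pairs was 56.6% in Control, 70.7% in anti_B7S1, 69.8% in anti_PD1 and 53.5% in combo, so both single antibodies lay above Control and combo. In Control Psmb10, listed at 0, adds nothing to the share. Psmb8 made up 78.3%, 82.2%, 78.8% and 65.9% of its pair in the same order. The 20S to 19S ratio was 2.76, 1.70, 2.27 and 1.73. The induced median log2 ratio was 0.43 for anti_PD1 minus Control and -0.30 for combo minus anti_B7S1, against 0.49 and 0.06 for all genes. For anti_B7S1 minus Control and combo minus anti_PD1 it was 0.06 and -0.22, against 0.20 and -0.15 for all genes.

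Many genes of every kind passed the 2-fold mark in these pairs. The share of proteasome genes past it lay below that of all genes in each pair and direction, a gap that was not tested. Against Control, 13 of 47 were higher in anti_PD1 (43.8% of 7829 genes) and 3 were lower (23.8%). Against anti_B7S1, 14 of 49 were higher in combo (33.3% of 7546) and 6 were lower (30.8%). Against Control, 13 of 47 were higher in anti_B7S1 (37.9% of 7083) and 6 were lower (29%). Against anti_PD1, 6 of 48 were higher in combo (23.6% of 8000) and 5 were lower (32.7%).

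Few differences held in both pairs of an antibody. For anti_PD1, 3 of 47 genes were at least 2-fold higher in both pairs (15.6% of 6255 genes) and 0 were lower in both (7.29%). They were Psmc3ip, Psmg4 and the ATPase gene Psmc6, which stood at 19.3 FPKM in Control, 39.5 in anti_B7S1, 177 in anti_PD1 and 168 in combo. For anti_B7S1, 1 of 46 was higher in both (8.32% of 5963 genes), again Psmg4, and 0 were lower in both (8.44%). Psmg4 was listed at 0 in Control and stood at 20.4, 9.43 and 46.0 FPKM in the others.

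Several of the largest ratios rested on the Control library. It listed 5 of the 49 genes at 0, namely Psmb10, Psme3, Psmg1, Psmg3 and Psmg4, and 9 below 1 FPKM. Among these were Psmd5 (0.06 FPKM), Psmd7 (0.88) and Psmd10 (0.08), which stood at 57.0, 49.9 and 113 FPKM in anti_B7S1. Psmg3 was also listed at 0 in anti_PD1 and combo, and Psme2b in combo. Tbp, a gene that every cell uses, was itself listed at 0 in combo, so a listed 0 is no measure of absence in this table.

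Other large ratios rested on a single library as well. Psma5, an alpha subunit gene, stood at 222, 177 and 204 FPKM in Control, anti_B7S1 and combo, but at 45.6 in anti_PD1. The beta gene Psmb1 stood at 450.4, 336 and 333 FPKM in Control, anti_PD1 and combo, but at 110.2 in anti_B7S1. Psmd14, the 19S deubiquitinase, stood at 115, 129 and 131 FPKM but at 39.4 in anti_B7S1, and Psmd3 at 64.0, 65.4 and 78.5 but at 22.1 there. Psmf1 was highest in combo, at 31.1 FPKM, against 7.22 to 14.6 in the others. Psmd9 stood at 10.6 FPKM in anti_PD1, against 33.1 to 48.5 in the others, and Psma3 at 68.1 FPKM in combo, against 109 to 198. Psmd1 stood at 69.1 FPKM in Control and 32.1 to 45.1 in the others. Psme2b stood at 1.32, 17.8 and 13.2 FPKM in Control, anti_B7S1 and anti_PD1.

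Genes that act beside the proteasome gave no calls in the sorted comparisons. Of 10 partners, 3 regulators, 14 genes of ubiquitin supply and shuttling, 11 of class I peptide supply and 11 of the interferon axis, limma called 0 in each population comparison and 0 between the libraries labelled KO and wild type. Ifng, which encodes the inducing cytokine, was highest in TIM-3_SP, at 912, 1692 and 1077 FPKM in the libraries numbered 1, numbered 2 and labelled KO. It stood at 265, 373 and 99.99 FPKM in DN and at 67.6, 39.97 and 17.1 in B7S1R_SP, so the populations kept one order in every set. For Ifng the log2 difference of B7S1R_SP minus TIM-3_SP was -4.55 ± 0.79 (SE), with adjusted p = 0.377 by limma. Between B7S1R_SP and DN the interferon list had a median of -0.81, with 10 of 11 genes lower in B7S1R_SP. Over all 10411 genes the median was -0.03, with 5329 lower. In the same comparison the CD8 T cell markers had a median of -1.17, with 8 of 8 lower, and the myeloid markers one of 2.89, with 8 of 10 higher, and 0 of either list passed the test. The part of these markers in the list's values was not tested.

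Neighbours and regulators of the induced genes followed no common order. Tap1, which shares the intergenic stretch with Psmb9, stood at 140.2, 81.7 and 19.04 FPKM in B7S1R_SP, TIM-3_SP and DN numbered 1, where Psmb9 stood at 443, 489.7 and 578. In the sets numbered 2 and labelled KO Tap1 stood between 8.42 and 19 FPKM. Irf1, an interferon-induced transcription factor, stood at 94.9, 14.2 and 17.4 FPKM in B7S1R_SP, at 66.3, 25.2 and 18.3 in TIM-3_SP, and at 78.7, 76.8 and 22.6 in DN. Nfe2l1, the factor that raises constitutive subunits when proteasome activity is short, stood between 0.49 and 4.87 FPKM in the sorted libraries. Between the libraries labelled KO and wild type the class I list had a median of -0.88 and the interferon list one of -0.49. That of all genes was -0.16. In those lists 8 of 11 and 9 of 11 genes were lower in the libraries labelled KO, against 6009 of all 10097 genes. The CD8 T cell markers had a median of -0.76 there, with 8 of 8 lower, and the myeloid markers one of 0.93, with 11 of 14 higher. Of both lists 0 genes passed the test, and their part in the values was not tested.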

How the data were processed

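RNA of CD8+ T cells was measured in 15 libraries made with a SMARTer ultra low input kit, per the labels' protocols. The authors deposited RPKM for the bulk pair (lowest value 0.001) and FPKM rounded to 2 decimals for the other libraries, per the file headers and values. The submitters' processing notes name HISAT2, Bowtie2, RSEM and the build mm10, without versions, and whether counting used strand is not given in the sources used here. No counts were used, so depth is unknown.

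The gene lists of the files form 4 tables (17205, 15627, 17605 and 14710 symbols listed once). Groups came from the titles, since the strain and genotype fields count upward in the sorted libraries. Values were compared on log2(value + 1) by limma 3.58.1 (R 4.3.3). Each fit held the genes that all its libraries list, at a mean of at least 1, with Benjamini-Hochberg adjustment over all genes and a threshold of 0.05. Population fits used the 6 wild-type libraries. Those numbered 1 and those numbered 2 come from different tables, and these fits held no term for the number. Their SEs therefore include any difference between those tables. Fits with the replicate number as a block were alternatives. The fit of libraries labelled KO against wild type used the 6 libraries of 1 table, with the population as a covariate. Deviations of same-numbered wild-type libraries correlated at 0.193, 0.269 and 0.401 over 10411 genes. The numbers also part the tables, and a difference between tables would raise these values too. They therefore do not show whether the numbers mark matched mice or sorts. Bulk and antibody libraries have 1 a group and no test: a gene was counted at 2-fold with 5 or more in the higher library. The fits were also run on simulated data, with the spread of each gene reduced and no difference between sets. That run checked the mean estimates and does not show what could be called in these libraries.

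Promoters came from RefSeq (GRCm38.p6) and transcript lengths from GENCODE M21. The members and lists were chosen with earlier results of these data known. Named genes were the 5 induced genes, Psmb5, Psmb6, Psmb7, Psme3, Psme4, Psma8 and Psmb11, the 3 other members with the largest rise and the 3 with the largest fall in each comparison, members listed at 0 and up to 3 genes of each other list. Psma6, Psma7, Psmb2, Psmb4, Psmc3, Psmd2, Psmd4, Psmg2, Irf1 and Pomp were named after their values were seen. Alternatives were another pseudocount (0.1), no filter, absent genes as 0, a shift to equal medians, an intensity trend, blocks and left-out libraries.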

Additional observations from a re-analysis of the deposited data

How the results depend on the processing

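No proteasome gene was called in any fit under any alternative run, and the smallest adjusted p of a member was 0.171 (limma). The counts of genes called moved. Between TIM-3_SP and DN 0 became 2 after the shift to equal medians, 2 with the replicate block and 6 with the replicate block over 9 libraries. Between B7S1R_SP and TIM-3_SP 0 became 4, 7 and 42 under the same settings, and 6 with an intensity trend. Between labelled KO and wild type 4 became 0 with the pseudocount of 0.1, without a filter or with all 9 libraries, 7 after the shift and 10 with the trend. It became 10, 27 and 0 without both libraries of B7S1R_SP, TIM-3_SP or DN, and 0 to 18 without single libraries. Absent genes counted as 0 could not alter that fit, whose libraries list the same genes.

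The shift to equal medians turned the constitutive median to 0.079 between TIM-3_SP and DN and to -0.062 between B7S1R_SP and TIM-3_SP. Between labelled KO and wild type it gave an induced median of 0.19 and a constitutive of 0.30, and Psmb10 0.21, Psmb8 0.011, Psmb9 0.043 and Psme1 0.19. With all 9 libraries these medians were -0.34 (induced) and 0.15 (constitutive) and Psmb10 was 0.10. Without B7S1R_SP they were -0.28 and 0.16, and without DN Psme1 was 0.17. Between TIM-3_SP and DN, Psmb8 was 0.18 after the shift and 0.12 with the replicate block over 9 libraries.

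Leaving out single libraries gave these ranges. Between TIM-3_SP and DN they were -0.27 to 0.19 for Psmb8, -0.76 to 0.20 for Psmb10, -1.12 to 0.39 for Psme2, -0.58 to 4.27 for Psme2b, -0.11 to 3.18 for Psmc3ip and -0.16 to 0.29 for Psmb9. Between B7S1R_SP and TIM-3_SP they were 0.12 to 0.33 for the constitutive median, -0.40 to 1.01 for Psme1, -1.38 to 0.16 for Psmd10 and -0.94 to 0.58 for Psme2. Between B7S1R_SP and DN they were -0.81 to -0.18 for the induced median, -0.73 to 3.58 for Psme2b, -0.55 to 2.74 for Psmc3ip and -1.38 to 0.029 for Psme1. Between labelled KO and wild type they were -0.28 to -0.041 and 0.027 to 0.16 for the induced and constitutive medians and -0.28 to 0.17 for Psme1. The cause of these moves was not tested.

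At 1.5-fold, with 5 or more in the higher library, members past the mark either way were 8 of 47 in the bulk pair (42.7% of all genes), 26 of 47 for anti_PD1 minus Control (78.8%), 31 of 47 for anti_B7S1 minus Control (78.9%) and 20 of 48 for combo minus anti_PD1 (71.5%). The shift gave a constitutive median of -0.091 for anti_PD1 minus Control.

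The alternatives for counts by rank were chosen after seeing the data. Without the set numbered 1 or the set numbered 2, B7S1R_SP was lowest for 8 or 7 of 49 members (14.7% or 8.55% of all genes). TIM-3_SP was lowest for 14 or 14 (25.2% or 19.3%) and DN highest for 11 or 15 (11.6% or 9.65%), since fewer sets must keep one order. After the shift TIM-3_SP was lowest for 5 (6.12%), DN highest for 1 (3.07%) and the libraries labelled KO lower for 3 (14.4%). Depth is unknown, and groups of 1 to 3 libraries limit what could be called.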
